A study of Mus musculus with 12 samples.

Results

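Some noncoding genes lie wholly inside the span of a larger protein-coding gene. The 5 pairs described here are 1700030L22Rik inside Npas3, 4933400F21Rik inside Agap1, 1700109K24Rik inside Rbfox2, Gm9831 inside Dclk1, and Gm15916 inside Ube2e2. They make up 10 of the 49489 gene symbols in the total RNA table. The pairs are a fixed list of names, selected on the antisense and sense total RNA counts of these same libraries, and each host is the gene whose span encloses the nested one. The difference between antisense and sense libraries in these 10 genes is therefore given as a description, with no test, and nothing is supported with it.

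The material was hippocampal neurons taken from mice at postnatal day 0 and kept in culture until day 16 in vitro. The study is a pulldown of Gas5, a noncoding transcript with small nucleolar RNAs in its introns, and holds 12 libraries, of which 3 titled antisense and 3 titled sense measured total RNA and are used here. Which title stands for the capture and which for its control is not given, nor are the strain and sex of the mice. Nothing states that the 3 libraries of a group are separate cultures, so every spread and p-value here measures the variation between these libraries, which may be technical.

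Genes inside introns of other genes are common in mammalian genomes and can run in the direction of the host or against it. A nested gene and its host share DNA, so a read from that stretch can come from either of them, and the strand of the read separates them only where they run in opposite directions. Long noncoding RNAs (lncRNAs) of this kind are often low in abundance and restricted to few tissues, and processed pseudogenes are copies of spliced mRNAs put back into the genome.

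The hosts encode proteins of different kinds. Npas3 encodes a basic helix-loop-helix PAS transcription factor needed for neurogenesis in the hippocampus. Agap1 encodes a GTPase-activating protein for Arf proteins that acts in endosomal trafficking. Rbfox2 encodes an RNA-binding protein that controls alternative splicing. Dclk1 encodes a doublecortin-like kinase that binds microtubules. Ube2e2 encodes a ubiquitin-conjugating enzyme.

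The total RNA libraries held 5775052 to 10424167 estimated counts. Gas5 took 9.71% to 14.2% of the antisense counts and 32.7% to 57.1% of the sense counts. Outside Gas5, 5148971 to 5399527 counts were left in each antisense library and 4092306 to 4469297 in each sense library. Of the 5 neuronal markers listed, all were above 0 in every library, with a summed level of 656 to 804 CPM (counts scaled to a common library size) in antisense and 815 to 1005 CPM in sense. The 4 astrocyte markers summed to 771 to 969 and 877 to 1136 CPM, the 4 oligodendrocyte lineage markers to 257 to 281 and 277 to 362 CPM, and the 3 vascular markers to 21.3 to 26.8 and 23.1 to 27.9 CPM. The 4 microglia markers summed to 14.5 to 18.3 CPM in antisense and 8.05 to 9.97 CPM in sense, and their part in the values below was not tested. All 4 astrocyte and all 4 oligodendrocyte lineage markers were above 0 in every library. Of the microglia markers 3 of 4 were, and of the vascular markers 2 of 3. In these bulk pulldown samples, fewer cells of a type, less RNA per cell and less of that RNA entering a library cannot be told apart.

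The spans of the pairs differ widely in size and place (RefSeq, GRCm38.p6). 1700030L22Rik, an lncRNA gene on chromosome 12 from 53298724 to 53317139, covers 2.23% of the 824 kb of Npas3 (53248026 to 54072173). Its lower-coordinate end lies 50.7 kb from that of Npas3. 4933400F21Rik, an lncRNA gene on chromosome 1 from 89676507 to 89683892, covers 1.68% of Agap1 (89454811 to 89895282), near its middle. 1700109K24Rik, an lncRNA gene on chromosome 15 from 77084398 to 77096314, covers 5.19% of Rbfox2 (77078990 to 77308434) and starts 5.41 kb from its lower-coordinate end. Gm9831, an lncRNA gene on chromosome 3 from 55377454 to 55403219, covers 8.68% of Dclk1 (55242303 to 55539068). Gm15916, a processed pseudogene by the authors' deposited table, spans 1161 bases on chromosome 14 from 18830909 to 18832069, which is 0.362% of Ube2e2 (18573563 to 18894284). The table used gives spans and no exons, so whether a nested gene overlaps an exon of its host was not analysed here.

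**Figure D1:**
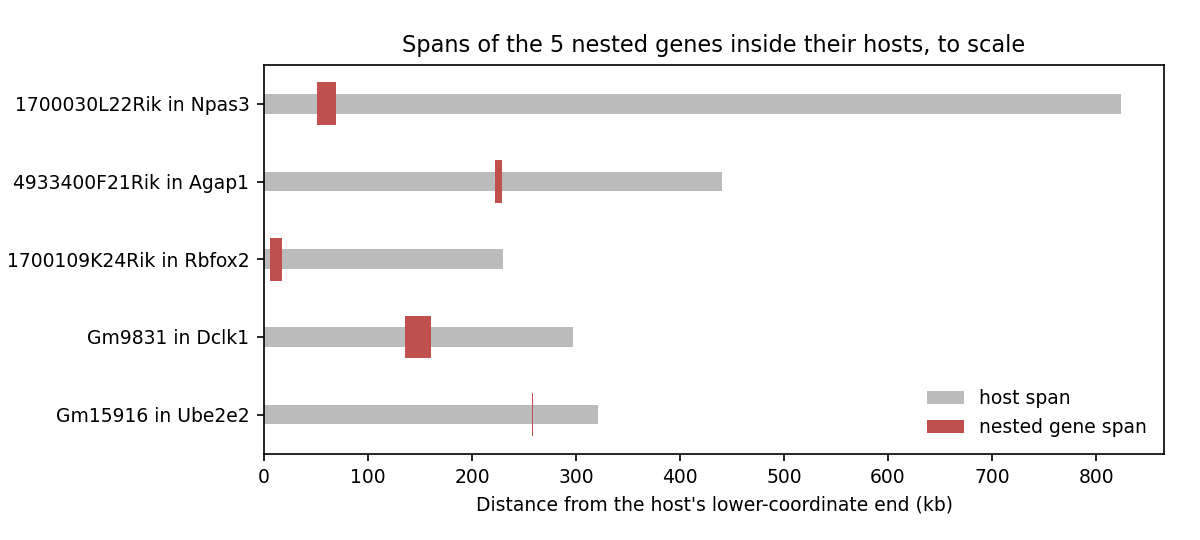
Spans of the 5 nested genes (red) drawn inside the spans of their hosts (grey), with the distance from the host's lower-coordinate end in kb on the horizontal axis. Npas3 is the longest host at 824 kb, and Gm15916, the shortest nested gene, is the thin line 257 kb into Ube2e2.

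Strand could be read for both genes of 3 pairs, and in all 3 the nested gene runs against its host. 1700030L22Rik, 4933400F21Rik and Gm9831 lie on the minus strand, and Npas3, Agap1 and Dclk1 on the plus strand. 1700109K24Rik lies on the plus strand and Ube2e2 on the minus strand, with no strand given in the tables used for Rbfox2 and Gm15916.

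The start regions of the nested genes and of 2 hosts are shown because they mark where each nested transcript is annotated to begin inside its host and how its sequence differs from a host start. Each is 300 bases from RefSeq (GRCm38.p6), 250 before to 50 after an annotated start, on the strand of its own gene. Every CG dinucleotide is in capitals. The Npas3 window lies wholly inside the span given for Npas3, which begins at 53248026. It marks a start other than that end of the span. The windows lie at chr12:53317090-53317389 (1700030L22Rik, minus strand), chr1:89683843-89684142 (4933400F21Rik, minus), chr15:77084148-77084447 (1700109K24Rik, plus), chr3:55403170-55403469 (Gm9831, minus), chr12:53248182-53248481 (Npas3, plus) and chr1:89454561-89454860 (Agap1, plus).
1700030L22Rik: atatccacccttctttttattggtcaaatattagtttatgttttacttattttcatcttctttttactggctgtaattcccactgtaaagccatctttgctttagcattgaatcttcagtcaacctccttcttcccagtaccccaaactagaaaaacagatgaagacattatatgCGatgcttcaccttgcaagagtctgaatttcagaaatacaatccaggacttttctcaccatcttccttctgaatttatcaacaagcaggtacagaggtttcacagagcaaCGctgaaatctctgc
4933400F21Rik: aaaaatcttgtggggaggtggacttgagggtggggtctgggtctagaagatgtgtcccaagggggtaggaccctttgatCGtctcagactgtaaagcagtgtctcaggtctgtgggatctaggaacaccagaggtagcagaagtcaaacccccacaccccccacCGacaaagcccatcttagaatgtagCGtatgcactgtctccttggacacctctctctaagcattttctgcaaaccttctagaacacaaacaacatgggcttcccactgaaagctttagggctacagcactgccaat
1700109K24Rik: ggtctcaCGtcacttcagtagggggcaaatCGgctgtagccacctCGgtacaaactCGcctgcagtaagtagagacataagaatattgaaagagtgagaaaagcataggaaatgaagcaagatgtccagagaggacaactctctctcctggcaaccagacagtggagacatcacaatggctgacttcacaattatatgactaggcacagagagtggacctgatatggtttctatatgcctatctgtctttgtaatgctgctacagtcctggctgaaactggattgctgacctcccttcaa
Gm9831: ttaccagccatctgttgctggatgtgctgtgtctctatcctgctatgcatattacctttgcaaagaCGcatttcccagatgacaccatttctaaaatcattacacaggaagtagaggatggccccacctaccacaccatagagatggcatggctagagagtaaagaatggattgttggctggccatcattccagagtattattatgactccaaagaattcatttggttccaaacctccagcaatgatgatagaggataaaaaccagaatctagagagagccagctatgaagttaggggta
Npas3: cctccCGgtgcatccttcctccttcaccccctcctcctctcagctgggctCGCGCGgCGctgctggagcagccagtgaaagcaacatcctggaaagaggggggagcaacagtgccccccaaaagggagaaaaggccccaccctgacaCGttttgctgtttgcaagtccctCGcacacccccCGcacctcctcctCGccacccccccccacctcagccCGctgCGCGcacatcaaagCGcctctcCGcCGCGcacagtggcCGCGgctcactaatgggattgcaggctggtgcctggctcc
Agap1: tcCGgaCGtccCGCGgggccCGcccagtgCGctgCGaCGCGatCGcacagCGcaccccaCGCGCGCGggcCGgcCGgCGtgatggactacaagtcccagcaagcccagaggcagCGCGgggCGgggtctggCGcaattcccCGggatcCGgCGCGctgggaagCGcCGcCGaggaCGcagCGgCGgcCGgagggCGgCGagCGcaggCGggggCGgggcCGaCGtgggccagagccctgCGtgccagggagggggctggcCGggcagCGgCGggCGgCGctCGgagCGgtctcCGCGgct

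The 4 nested start windows hold fewer CG dinucleotides than the median window, as do both windows of the host Dclk1. The nested windows hold 2 (1700030L22Rik), 3 (4933400F21Rik), 4 (1700109K24Rik) and 1 (Gm9831). The median is 7 over the 32851 windows of the table. In the same order, 85.9%, 76.7%, 68.6% and 94.6% of all windows hold at least as many. The host windows hold 18 for Npas3, 50 for Agap1, 5 and 6 for the 2 windows of Dclk1, and 39 and 55 for the 2 of Ube2e2. As many as 50 are found in 0.855% of all windows. GC content was 37.3%, 50.7%, 46.3% and 43.0% for the nested genes in the order above, with a median of 52.7% over the table.

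Motif matches, searched on both strands, are letters found in these windows and no more. TATAAA is in none of the members' windows and in 13.6% of all windows. CCAAT is in the windows of 1700030L22Rik and 4933400F21Rik and in 1 window of Dclk1, and in 37.4% of all. GGGCGG is in the windows of Agap1 and in both of Ube2e2, in none of the nested windows, and in 35.7% of all.

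All 5 nested genes had counts in each antisense library and none in any sense library. The 3 antisense libraries held 267, 288 and 274 counts of 1700030L22Rik, the most abundant of them by count. 4933400F21Rik had 211, 229 and 208 counts, and 1700109K24Rik had 144, 160 and 149. For these genes the antisense libraries lie close together and every sense library is at 0. Gm9831 had 135.5, 146.7 and 162.4 estimated counts, and Gm15916 had 138, 143 and 129.

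Scaled to CPM (on TMM-effective library sizes), 1700030L22Rik stood at 36.3 ± 1.01 (SD, n = 3) in antisense, 4933400F21Rik at 28.3 ± 0.928 and 1700109K24Rik at 19.8 ± 0.817. Gm9831 stood at 19.5 ± 1.98 CPM and Gm15916 at 17.9 ± 0.572 CPM. Against a floor of 3 counts over the sense group (0.161 CPM), the nested genes were at least 225-fold (1700030L22Rik), 176-fold (4933400F21Rik), 123-fold (1700109K24Rik), 121-fold (Gm9831) and 111-fold (Gm15916) higher. In a single sense library 3 counts amount to 0.467 to 0.514 CPM, and floors reflect counting error alone, as PCR reads that carry no molecular identifier are not independent molecules. Of the 20049 genes that passed the filter on low counts, 23.4% had all antisense above all sense libraries and 3.11% had no sense count. All 10 members passed that filter, and the 5 nested genes meet both descriptions, as the selection on this contrast made them do.

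**Figure D2:**
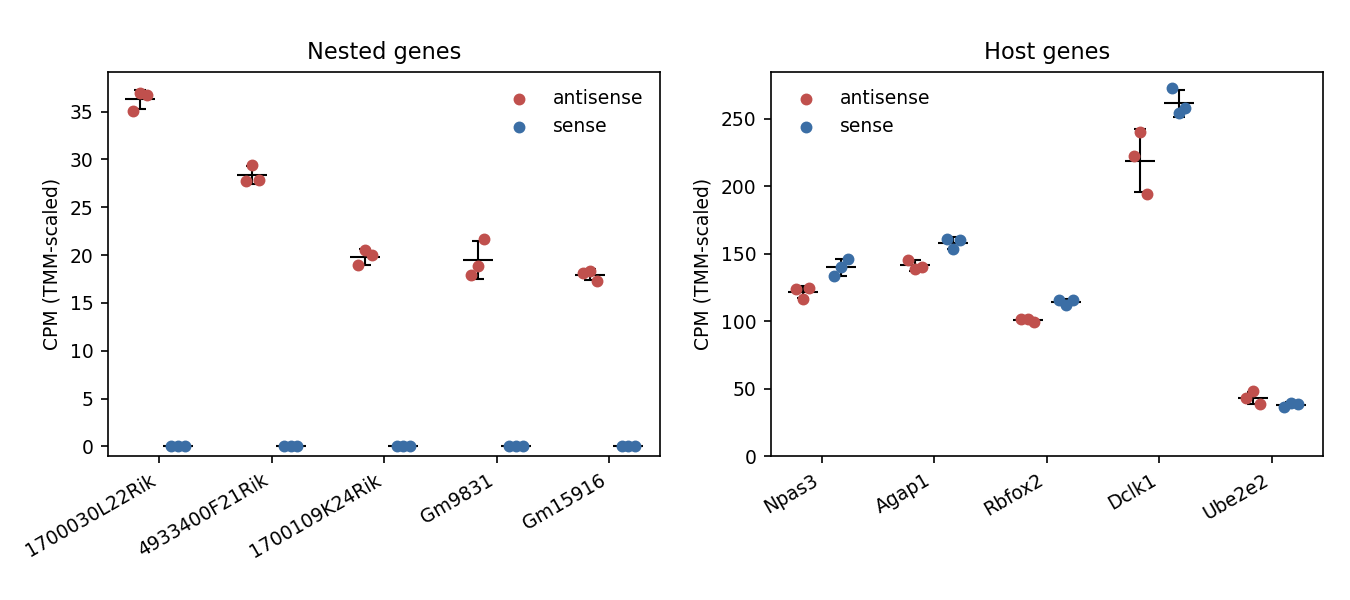
Level of each nested gene (left) and host gene (right) in each library, in TMM-scaled CPM on linear axes. Points are libraries, horizontal marks the group mean and bars 1 SD (n = 3). The nested genes lie between 17.3 and 37.0 CPM in antisense and at 0 in sense, while the hosts lie between 36.4 and 272.9 CPM over all 6 libraries.

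The antisense libraries agreed closely on 4 of the nested genes. The SD over 3 libraries was 2.80% of the mean for 1700030L22Rik, 3.28% for 4933400F21Rik, 4.12% for 1700109K24Rik and 3.19% for Gm15916. Counting error alone would give 6.02%, 6.80%, 8.14% and 8.55% at their mean counts. Gm9831 varied by 10.2%, with counting error at 8.22%, and was highest in antisense replicate 3. The order of the levels has 1700030L22Rik first and 4933400F21Rik second, apart from each other and from the rest in every antisense library. The remaining 3 lie between 17.3 and 21.7 CPM. Gm9831 overlaps both of the others over libraries, while every antisense value of 1700109K24Rik lies above those of Gm15916. These are levels per library and not per length.

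The estimated counts of 4 nested genes were whole numbers in all 6 libraries, within 0.005 of an integer. Among the genes tested, 23.9% were whole in all 6. Gm9831 had fractional counts in its 3 antisense libraries, and each host had fractional counts in at least 3 libraries.

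The hosts were counted in every library. Npas3 had 123.7, 116.5 and 124.7 CPM in the antisense libraries (mean 121.6 ± 4.50, SD, n = 3) and 133.8, 139.9 and 146.4 in the sense libraries (140.0 ± 6.34). Its antisense libraries all lay below its sense libraries, for a log2 fold change of -0.20 (SE 0.0869). Agap1 stood at 145.6, 138.4 and 139.9 CPM in antisense and 161.1, 153.2 and 160.1 in sense, again with no overlap and with a log2 fold change of -0.16 (SE 0.0844).

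Rbfox2 varied least of the hosts, by 1.31% of its mean in antisense and 1.96% in sense. It had 101.4, 101.7 and 99.3 CPM in antisense and 115.4, 111.6 and 115.4 in sense, or -0.18 (SE 0.0842) as a log2 fold change. Dclk1, the host with the most counts, had 222.6, 240.2 and 193.9 CPM in antisense and 272.9, 254.0 and 257.8 in sense, or -0.26 (SE 0.0966). The highest antisense value of Dclk1 lies below its lowest sense value. Ube2e2 went the other way, with 42.7, 47.9 and 38.9 CPM in antisense and 36.4, 39.6 and 38.5 in sense, or 0.18 (SE 0.108), and its groups overlap.

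All antisense libraries lay below all sense libraries for 4 of the 5 hosts, and for 13.2% of all genes that passed the filter. These host values come from the contrast that chose the pairs and nothing is read from them. With scaling by library totals alone, Gas5 included, the log2 fold changes of Npas3, Agap1, Rbfox2 and Dclk1 turn positive, at 0.50, 0.55, 0.53 and 0.46, where the median of all genes is 0.70 and 99.5% of calls are higher in antisense, in place of 80.7%. The authors' deposited table gives, as sense over antisense, a log2 fold change of 0.21 for Npas3, 0.17 for Agap1, 0.19 for Rbfox2, 0.26 for Dclk1 and -0.17 for Ube2e2.

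The nested count was also taken as a percentage of the host's count in each antisense library. 1700030L22Rik had 28.4%, 31.8% and 29.4% of the count of Npas3, and 4933400F21Rik had 19.1%, 21.3% and 19.9% of that of Agap1. 1700109K24Rik had 18.7%, 20.2% and 20.1% of the count of Rbfox2. Gm9831 had 8.0%, 7.84% and 11.2% of that of Dclk1, with replicate 3 above the other two, and Gm15916 had 42.5%, 38.3% and 44.5% of that of Ube2e2. In the sense libraries all these values are 0. The pairs of Npas3, Dclk1 and Ube2e2 do not overlap any other pair over the antisense libraries, whereas those of Agap1 and Rbfox2 overlap. The percentages are not per length and serve to compare libraries of 1 pair.

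Nested and host levels were also added together for each pair. The sum was 157.9 ± 4.03 CPM in antisense and 140.0 ± 6.30 in sense for the Npas3 pair (SD, n = 3). It was 169.6 ± 3.20 and 158.1 ± 4.30 for the Agap1 pair, and 120.6 ± 1.57 and 114.1 ± 2.19 for the Rbfox2 pair. For the Dclk1 pair the groups overlap, at 238.4 ± 21.8 and 261.6 ± 10.02 CPM. For the Ube2e2 pair the sum was 61.1 ± 5.07 and 38.2 ± 1.64 CPM. The antisense sum lies above every sense library for 4 of the pairs. Of all single genes that passed the filter, 23.4% had all antisense above all sense libraries. The nested part of each sum was selected on this contrast and had no count in any sense library. That selection raises the antisense sums, so nothing is read from them.

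**Figure D3:**
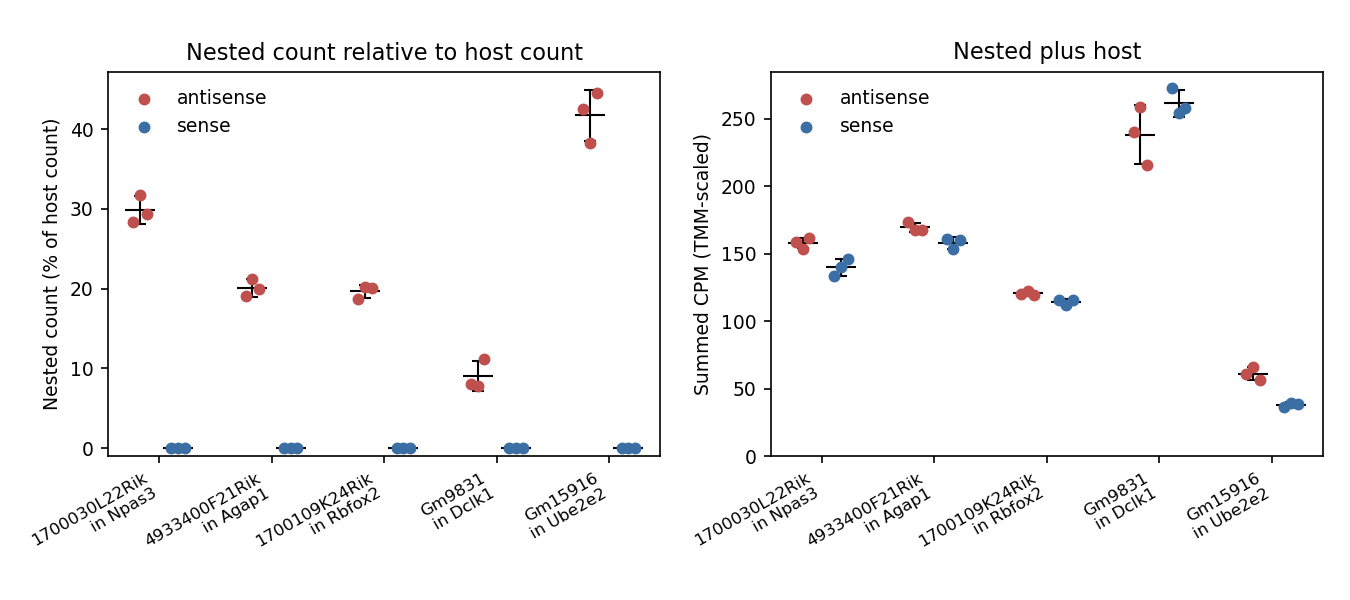
Left, nested count as a percentage of the host count in each library. Right, nested plus host in TMM-scaled CPM. Points are libraries, marks the group mean and bars 1 SD (n = 3); the antisense means run from 9.02% for Gm9831 to 41.8% for Gm15916, and the summed level of the Dclk1 pair overlaps between groups.

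The 5 hosts enclose 3 other genes of the count table, all short RNAs or pseudogenes, and they did not all follow the members. Gm22499, an annotated small nucleolar RNA of Ube2e2's span (chromosome 14 from 18814169 to 18814303), had 17, 21 and 19 counts in antisense and 0 in sense. It was at least 15.4-fold higher (edgeR adjusted p = 2.77e-05), but passed the filter on low counts through antisense alone. Gm24056, a pseudogene inside Rbfox2, had 11, 14 and 11 counts in antisense and 7, 12 and 13 in sense, and did not pass (log2 fold change -0.13, SE 0.379; edgeR adjusted p = 0.851). Gm25132, an annotated small nuclear RNA inside Dclk1, had 4, 9 and 1 counts in antisense and 2, 4 and 4 in sense and was too low to be tested. Of the 2 tested, 1 was thus higher (50%), where 18.2% of all genes were higher.

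Genes nested in other neuronal genes were examined with a list of 40 large neuronal genes, of which 25 held a tested nested gene. The list was chosen with earlier results of these data known, so its shares are a description. Among 32 such nested genes, 20 were higher in antisense (62.5%), 0 lower and 12 without a call, where 18.2% of all genes were higher. Of the 32, 12 had no sense count and so passed the filter on low counts through antisense alone. With no filter, 26 of 65 were higher (40%), where 14.3% of all genes were. Of all 20049 genes 2135 were lower at an unadjusted p under 0.05 and 648 by DESeq2, and none of the 32 was by either. Their median log2 fold change was 5.80, or 3.65 with genes absent from sense set at their lower bound, against -0.01 over all genes. Inside Nrg3, which encodes a neuregulin, Gm20642 had 90, 125 and 100 counts and Nrg3os 58, 91 and 72, both with 0 in sense and at least 85.2-fold and 59.8-fold higher (edgeR adjusted p = 1.45e-07 and 7.10e-07).

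Inside the exocyst gene Exoc4, Gm13854 had 246 antisense and 3 sense counts, a scaled ratio of 66.7 (95% exact interval 22.5 to 325.5). Gm16347, inside Csmd1, had 207 and 1, a ratio of 168.3 (29.9 to 6678). Both intervals cover counting error only. Without sense replicate 2, which holds the 1 sense count of Gm16347 and 2 of the 3 of Gm13854, the fitted log2 fold change went from 6.98 to 8.99 for Gm16347 and from 5.91 to 6.75 for Gm13854.

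The nested genes of the whole table were then counted by strand, in classes chosen after the strand table was seen. Leaving out the members, 310 tested genes lay inside a gene that reached 10 CPM in sense and ran against it, and 264 of them were higher in antisense (85.2%), 2 lower and 44 did not pass (edgeR adjusted p under 0.05; all genes, 18.2% higher). Of these 310, 69 had no sense count and passed the filter through antisense alone, and 273 had all antisense above all sense libraries. With no filter, 337 of 441 were higher (76.4%). The median log2 fold change of the 310 was 4.20, or 3.72 with the 69 at their bound. Of 47 tested genes running in the direction of such a host, 0 were higher, 1 was lower and 46 had no call. Their median was -0.08, and on library totals alone 22 were higher (46.8%), where 63.9% of all genes were. In the main fit 2 of the 47 were higher at an unadjusted p under 0.05, where 4457 of all 20049 genes were. DESeq2 called 0 of the 47 higher. Where a strand was not given, 363 of 674 were higher (53.9%). Genes overlapping no other gene were higher in 1054 of 10494 cases (10%).

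Among genes running against their host, the count of higher genes was read by the level of the host. With a host at 10 to 50 CPM in sense, 110 of 143 were higher (76.9%), with one at 50 to 100 CPM 74 of 85 (87.1%), and with one at 100 CPM or more 80 of 82 (97.6%). In that order, 30, 19 and 20 of the genes tested had no sense count and passed the filter through antisense alone. With a host under 10 CPM, 53 of 133 were higher (39.8%). These were 49 of 93 (52.7%) with a host at 1 to 10 CPM and 4 of 40 (10%) with one under 1 CPM. Over all genes 18.2% were higher. Over the 310 genes with hosts of 10 CPM or more, the antisense minus sense difference in CPM had a Spearman correlation of 0.36 with the sense CPM of the host, as a description over genes that share libraries and, in part, hosts (284 hosts). That difference had a median of 4.65 CPM (quartiles 2.57 and 8.41) and was above 0 for 291 genes. The 3 members with both strands given have hosts at 140.0 (Npas3), 158.1 (Agap1) and 261.6 (Dclk1) CPM in sense.

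**Figure D4:**
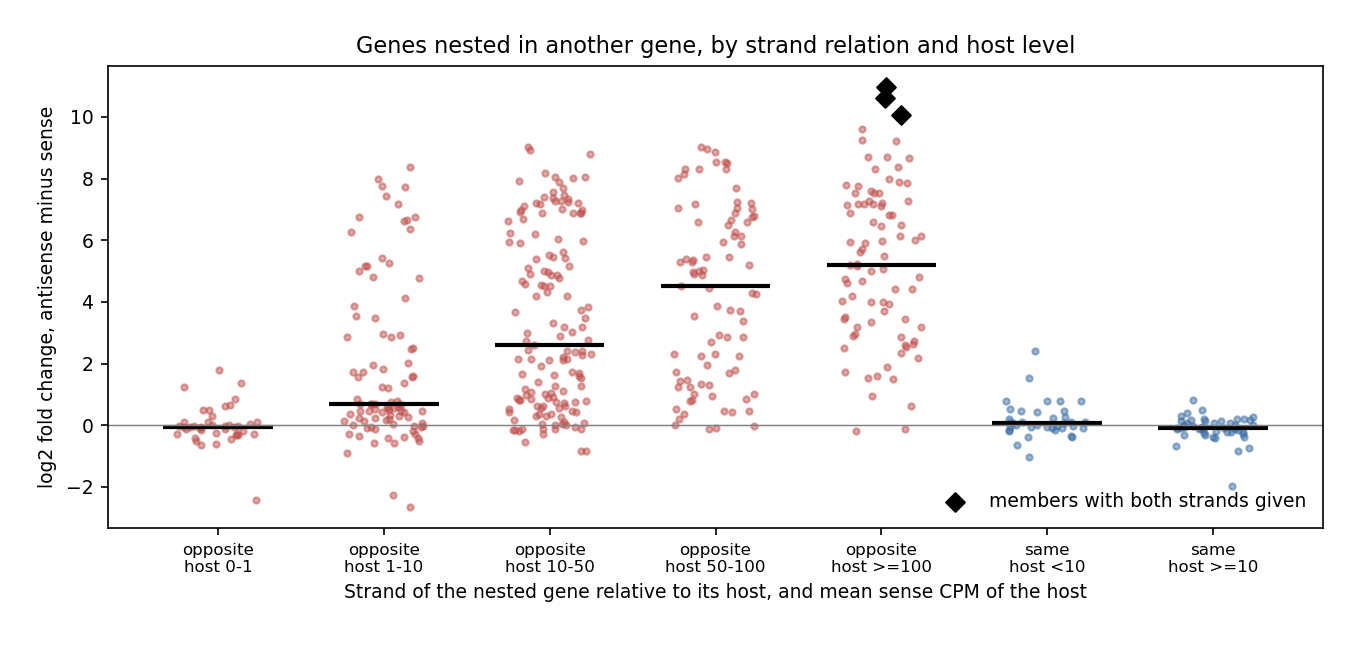
Log2 fold change (antisense minus sense) of each tested gene nested in another gene, by strand relation and by the mean sense CPM of the host. Dots are genes, bars medians without the members, and diamonds the 3 members with both strands given; medians of genes against their host are -0.06, 0.69, 2.61, 4.51 and 5.20 from the lowest to the highest host level, and fitted values of genes absent from sense depend on the prior count of the fit.

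The use of strand in counting is not given in the sources used here, so reads of a nested gene and of its host cannot be told apart in these tables. Its part in these counts was not tested. The other hosts of genes on the opposite strand that reached 10 CPM in sense, 284 genes, had a median log2 fold change of -0.12. Hosts under that level were left out. Of the 284, 24 were called lower, 13 higher (4.58%) and 247 did not pass, where 4.35% of all genes were lower and 18.2% higher.

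Relatives of the hosts were read from a list of 14 paralogs and partners. Of these 1 was lower (7.14%), 0 were higher and 13 had no call, beside 4.35% lower and 18.2% higher over all genes. The median of their log2 fold changes was -0.22, against -0.01 over all genes. None was higher by DESeq2 or at an unadjusted p under 0.05, and 5 of the 14 were lower at that p. Over all 20049 genes, 4457 were higher and 2135 lower at that p. Agap2, an Arf GTPase-activating protein gene related to Agap1, was at 66.8, 58.6 and 46.0 CPM in antisense and 91.7, 63.9 and 94.2 in sense (log2 fold change -0.54, SE 0.151; edgeR adjusted p = 0.0164). The call of Agap2 was lost on leaving out antisense replicate 3 (edgeR adjusted p = 0.0596), sense replicate 1 (0.0655) or sense replicate 3 (0.0878), and its log2 fold change was 0.20 on library totals alone. The neuronal splicing regulator Rbfox3 had -0.43 (edgeR adjusted p = 0.0585) and Rbfox1 -0.25 (0.137), and the doublecortin-like kinase Dclk2 had -0.27 (0.0699) and Agap3 -0.31 (0.0757).

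The genes most like each host over the 6 libraries were found by Pearson correlation of log2(CPM + 0.5) among 10994 genes of at least 10 CPM, as a description. They were Lrp8 (0.993) and Anxa11 (0.989) for Npas3, Ip6k1 (0.996) and Garem1 (0.995) for Agap1, and Ocrl (0.997) and Ogdhl (0.997) for Rbfox2. For Dclk1 they were Ctr9 (0.996) and Dus1l (0.993), and for Ube2e2 Nfs1 (0.988) and Rnf13 (0.986). The 6 points of each correlation fall in 2 groups and share library depth. A correlation does not measure the size of a change. The log2 fold changes were -0.80 for Ocrl and -0.38 for Ogdhl beside -0.18 for Rbfox2, and -0.18 for Lrp8 beside -0.20 for Npas3.

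The list of pairs states no threshold, and its last member lies in a run of close values. Among genes with no sense count, Gm15916 was the 6th by antisense level at 17.9 CPM, after B230217J21Rik at 19.0 CPM, which has no position in the table used. Just below it came 4930570B17Rik at 17.3, Plxna4os2 at 17.3, Gm26743 at 16.99, Myh6 at 16.7 and Gm26992 at 16.7 CPM. Of these 5, Myh6, a cardiac myosin gene, has a position in that table with no gene enclosing it, and the other 4 have no position there.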

How the data were processed

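The deposited total RNA table holds estimated counts per gene symbol for 6 libraries. Per the submitters' processing notes Salmon, DESeq and build GRCm38 were used. Versions, settings and any use of strand were not given in the sources used here. The authors' deposited comparison table holds log2 fold changes and p-values by gene, of which the log2 fold changes and the gene type were read. The small RNA tables were not used: no miRNA of the RefSeq table lies in the 5 hosts, and transcript identifiers there are not paired with genes in the tables given, so the test planned on them was not run.

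Counts were rounded, filtered with filterByExpr (minimum count 10; 20049 genes kept), scaled with TMM and tested with edgeR 4.0.16's quasi-likelihood F test, two-sided, antisense minus sense (R 4.3.3; false discovery rate 0.05, Benjamini-Hochberg). CPM uses the TMM-effective size. The standard error is the log2 fold change over the square root of F. DESeq2 1.42.0, library totals, other filters, Gas5 left out, a replicate block and leaving out each library were alternatives. Replicate numbers were not used to pair libraries in the main fit. Steps were tested on simulated counts.

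Positions matched 37893 symbols, or a synonym, in a RefSeq table (GRCm38.p6), and 20817 of these had a strand, taken from the promoter table. Where several genes enclose a gene, the host is that with the highest sense CPM. The members, lists and classes were chosen with earlier results of these data known, the strand classes and exceptions after the strand table was seen. Named are the 10 members, up to 5 genes a list by smallest p, 2 genes most like each host, and the 5 genes next to the nested genes by level. The values of 1 gene named by this rule are not reported here.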

Additional observations from a re-analysis of the deposited data

How the results depend on the processing

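Without filtering, with Gas5 left out, under DESeq2 and under a replicate block the counts of higher and lower genes stayed within 1.5 times. With the block they were 3428 and 695, in place of 3658 and 873, and the call of Bak1 was lost. Same-numbered libraries had correlations of deviations of 0.051, -0.059 and -0.009, and differently numbered ones -0.132 to 0.142. These values give no sign of a pairing by number, but with 3 libraries a group they cannot exclude one. On library totals alone 12804 genes were higher (63.9%) and 62 lower, 0 paralogs were lower, and 22 of 47 same-strand nested genes were higher (46.8%). There the log2 fold changes were 0.50 for Npas3, 0.55 for Agap1, 0.53 for Rbfox2, 0.46 for Dclk1, 0.56 for Gm24056, 0.20 for Agap2, 0.29 for Rbfox3, 0.44 for Dclk2, 0.41 for Agap3, 0.45 for Rbfox1, 0.57 for Dhrs3 and 0.57 for Gm9958, all negative on the TMM scale. The scale is centred on another median there (0.70 in place of -0.01). At a minimum count of 50, with fewer genes tested, 1795 genes were higher and 402 lower, 6 of 9 genes in the listed neuronal hosts were higher, and 116 of 139 opposite-strand genes (83.5%).

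Leaving out 1 library gave 3392 to 3987 higher and 492 to 1100 lower genes. The count of lower genes was 571 with antisense replicate 1 left out, 534 with sense replicate 1 left out, and 492 with sense replicate 3 left out. Genes nested in the listed neuronal hosts gave 20 higher each time, opposite-strand genes 265 to 285, and same-strand genes 0 to 1, with the 1 coming without sense replicate 2. Lower paralogs numbered 0 without sense replicate 1 or 3 and 3 without sense replicate 2. Gm24056 ranged from -0.39 without sense replicate 1 to 0.07 without sense replicate 3, and Gm9958 from -0.35 to 0.11 likewise. None of the other genes nested in the 5 hosts was left to test at a minimum count of 50, and the alternatives planned for small RNA were not run. Depth limits the nested genes in sense to at most 0.161 CPM over the group. Where no cause is given, the cause was not tested.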

Other observations

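A few genes nested in a well-counted gene stood apart from the others of their strand class (chosen after seeing their values). Of the 310 genes running against a host of at least 10 CPM, 2 were lower in antisense. A630072M18Rik, inside Rsbn1l, had 102, 92 and 128 counts in antisense and 163, 168 and 136 in sense (log2 fold change -0.83; edgeR adjusted p = 0.000625), and did not pass on library totals alone. Bak1, which encodes a pro-apoptotic protein and is annotated inside Ggnbp1, had 24, 26 and 21 counts in antisense and 26, 35 and 41 in sense (log2 fold change -0.82; edgeR adjusted p = 0.0478), and passed again with no filter and without sense replicate 1 but in none of the other alternatives run for it, DESeq2 among them.

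With a host at 100 CPM or more, 2 opposite-strand genes were not called. Dhrs3, a short-chain dehydrogenase gene inside Vps13d, had 70, 56 and 77 counts in antisense and 77, 48 and 64 in sense. Gm9958, inside Ankrd17, had 22, 23 and 25 and then 15, 21 and 26. Both have overlapping groups in counts, with hosts at 413.7 CPM (Vps13d) and 406.2 CPM (Ankrd17) in sense, above those of all 5 members. The 1 lower gene in the direction of its host was 1810009A15Rik, inside Lbhd1 (log2 fold change -0.84; edgeR adjusted p = 0.0153), which did not pass on library totals alone or without antisense replicate 1 or sense replicate 2.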
